A study of Mus musculus with 24 samples.

Results

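The I-BAR (inverse BAR) domain genes *Baiap2l2*, *Baiap2*, *Baiap2l1* and *Mtss1* were followed in mpkCCD cells, a mouse cortical collecting duct epithelial line, during exposure to dDAVP, a vasopressin analogue that acts on the V2 receptor. They were taken from the deposited tables by gene symbol through the GENCODE M21 annotation and are 4 of the 54432 genes listed. They were selected on measured values, the higher counts of *Baiap2l2* with dDAVP than with vehicle, which were known when the list was drawn up. The differences between dDAVP and vehicle are therefore given for these 4 genes as a description, with no test. Cells received dDAVP for 3, 6, 12 or 24 h, or vehicle for 3, 6, 12 or 24 h, on the basolateral side, with 3 libraries for each of the 8 groups. Cells of all groups are labelled wild type, of C57BL/6 origin and at passage 10 to 11, and were held on permeable filters for 6 days and in minimal medium for 24 h beforehand. The line is a cultured model of the principal cell, and the labels do not say whether the replicates came from separate cultures, so a p-value here reflects only library-to-library spread, part or all of which may be technical.

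I-BAR proteins form elongated dimers that bind phosphoinositide-rich membrane through a convex face and bend it outward, toward filopodia, ruffles and microvilli, whereas classical BAR proteins bend membrane inward. *Baiap2* encodes IRSp53, which joins Cdc42 and Rac1 to actin regulators through its SH3 domain. *Baiap2l1* encodes IRTKS, a relative of IRSp53 found at microvillus tips and used by some pathogens to build actin pedestals. *Baiap2l2* encodes Pinkbar, an epithelial protein that forms flat membrane sheets and is known from intestinal epithelium and from the stereocilia of hair cells. *Mtss1* encodes MIM (missing in metastasis), which has no SH3 domain and carries an actin-binding WH2 motif at its end. In the collecting duct principal cell, vasopressin moves the water channel aquaporin-2 to the apical membrane and raises transcription of its gene, *Aqp2*.

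The genes lie apart in the genome. In GRCm38, *Baiap2l2* (ENSMUSG00000018126) occupies chromosome 15 from 79258195 to 79285537 on the minus strand. *Mtss1* (ENSMUSG00000022353) is on the same chromosome and strand from 58941234 to 59082005. *Baiap2* (ENSMUSG00000025372) lies on chromosome 11 from 119942763 to 120006782 on the plus strand, and *Baiap2l1* (ENSMUSG00000038859) on chromosome 5 from 144264526 to 144358112 on the minus strand. The other mammalian I-BAR gene, *Mtss2* (ENSMUSG00000033763, named *Mtss1l* in that annotation), is not among the 4 and is used only for comparison.

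The contrast of *Baiap2l2* with its paralogues needs reads that can be told apart, so the longest stretches of identical coding sequence are shown. The coding strand is written from the GENCODE M21 transcripts, with the identical run in capitals and up to 20 bases on each side. *Baiap2l2* and *Baiap2* share at most 15 coding bases in a row, near the start of both coding sequences, and 36 of the 55 bases of the windows are identical.
Baiap2l2, coding bases 34 to 88: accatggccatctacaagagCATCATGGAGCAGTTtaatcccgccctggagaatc
Baiap2, coding bases 37 to 91: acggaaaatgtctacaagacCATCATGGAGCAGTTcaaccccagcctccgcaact
*Baiap2l2* and *Baiap2l1* share 17 bases near the end of both coding sequences, with 40 of 57 window bases identical.
Baiap2l2, coding bases 1484 to 1540: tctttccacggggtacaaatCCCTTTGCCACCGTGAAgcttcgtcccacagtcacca
Baiap2l1, coding bases 1460 to 1516: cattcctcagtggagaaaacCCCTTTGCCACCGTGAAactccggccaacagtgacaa
*Baiap2l2* and *Mtss1* share 11 bases next to the stop, with 26 of 41 window bases identical.
Baiap2l2, coding bases 1526 to 1566: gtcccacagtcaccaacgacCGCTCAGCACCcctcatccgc
Mtss1, coding bases 2237 to 2277: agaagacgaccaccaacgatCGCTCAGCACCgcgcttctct

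No run of 31 bases was shared among the transcripts of the 4 genes or *Mtss2* on either strand. All 2781 such words of *Baiap2l2* and all of *Baiap2* were found in no other annotated gene, as were 96.49% of those of *Baiap2l1* and 99.99% of those of *Mtss1*. *Baiap2l1* overlaps *Bri3* on the opposite strand, and *Mtss1* overlaps an antisense gene, 4930544F09Rik, so reads from overlapping exons of these pairs may not be separable, since the strand setting is not given in the sources used here. *Baiap2l2* and *Baiap2* overlap no annotated gene.

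Depth was 17.25 to 27.64 M (mega) estimated counts per library. Of the 19 principal cell markers 13 were at a median of at least 5 CPM (counts scaled to a common library total) with summed levels of 5980 to 6720 CPM in dDAVP libraries and 5340 to 6070 CPM in vehicle libraries. Most of that sum came from the general epithelial genes *Krt18*, *Krt8*, *Cdh1*, *Epcam* and *Krt19*, with medians of 2170, 1370, 912, 737 and 314 CPM. Of the more specific genes *Gata3*, *Scnn1a* and *Avpr2* had medians of 217, 67.2 and 42.9 CPM, while *Aqp3*, *Elf5*, *Tfap2b*, *Scnn1b*, *Aqp4* and *Kcnj1* lay under 5 CPM, at 3.93, 2.80, 1.58, 1.44, 1.16 and 0.68 CPM. Of 19 markers of other kidney cells 3 reached that level (*Lrp2*, *Atp6v1b1* and *Cd68*) and 9 were under 1 CPM, with sums of 68 to 112 CPM under dDAVP and 90.1 to 137 CPM under vehicle. Of 6 hair cell markers 5 were under 1 CPM, and *Myo7a* was at 18.5 CPM. Libraries also differed in the share of counts that fell in 1428 olfactory and vomeronasal receptor genes, from 0.131% to 0.874%. At 6 h this share averaged 0.190% ± 0.0703 with dDAVP and 0.510% ± 0.0706 with vehicle (SD, n = 3 each), and at 3 h 0.362% ± 0.118 with dDAVP and 0.610% ± 0.249 with vehicle. Effects are therefore also given from a second model, the covariate model, that adds the log2 of this share. At 6 h the share was 0.131% to 0.268% in dDAVP libraries and 0.430% to 0.564% in vehicle libraries, with no overlap. Share and treatment therefore cannot be fully told apart at 6 h, and a call lost there in the covariate model does not show its cause. *Aqp2* showed that the hormone acted: it averaged 119, 199, 136 and 224 CPM at 3, 6, 12 and 24 h of dDAVP, against 5.74, 5.07, 6.93 and 5.49 CPM in vehicle cells.

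*Baiap2l2* was several times higher in dDAVP cells at every time. At 3 h it had 10.9, 13.0 and 13.9 CPM in the dDAVP libraries, against 4.21, 3.41 and 4.81 CPM in the vehicle libraries. At 6 h it had 18.6, 19.8 and 21.6 CPM with dDAVP, against 3.53, 3.25 and 4.12 CPM with vehicle. The level under dDAVP was thus higher at 6 h than at 3 h in every library, while the vehicle level was not. At 12 h the values were 20.8, 17.0 and 21.8 CPM with dDAVP, against 4.51, 7.60 and 5.96 CPM with vehicle. At 24 h they were 23.5, 21.7 and 21.7 CPM with dDAVP, against 5.66, 7.80 and 5.81 CPM with vehicle. The lowest dDAVP library lay above the highest vehicle library of the same time in all 4 comparisons, which was so for 4.04%, 29.8%, 2.47% and 4.25% of all genes tested at 3, 6, 12 and 24 h. These levels rested on 67 to 498 counts per library. In a bulk sample, a change in the number of cells that express a gene and a change in RNA per cell cannot be told apart.

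The log2 fold change of *Baiap2l2*, dDAVP over vehicle, was 1.60 (SE 0.18) at 3 h, 2.46 (SE 0.184) at 6 h, 1.73 (SE 0.176) at 12 h and 1.80 (SE 0.176) at 24 h, or 3.04-, 5.50-, 3.31- and 3.47-fold. In the covariate model the values were 1.45, 2.16, 1.69 and 1.77. It was among the genes called by edgeR's quasi-likelihood test at all 4 times in both models, at an adjusted p (Benjamini-Hochberg over all 29743 genes tested) under 0.05. The share of all genes called in either direction was 0.484%, 38.1%, 0.0773% and 0.0841% at 3, 6, 12 and 24 h, and 0.73%, 0.336%, 0.296% and 0.346% in the covariate model. Since this contrast chose the genes, nothing is read from these calls.

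**Figure D1:**
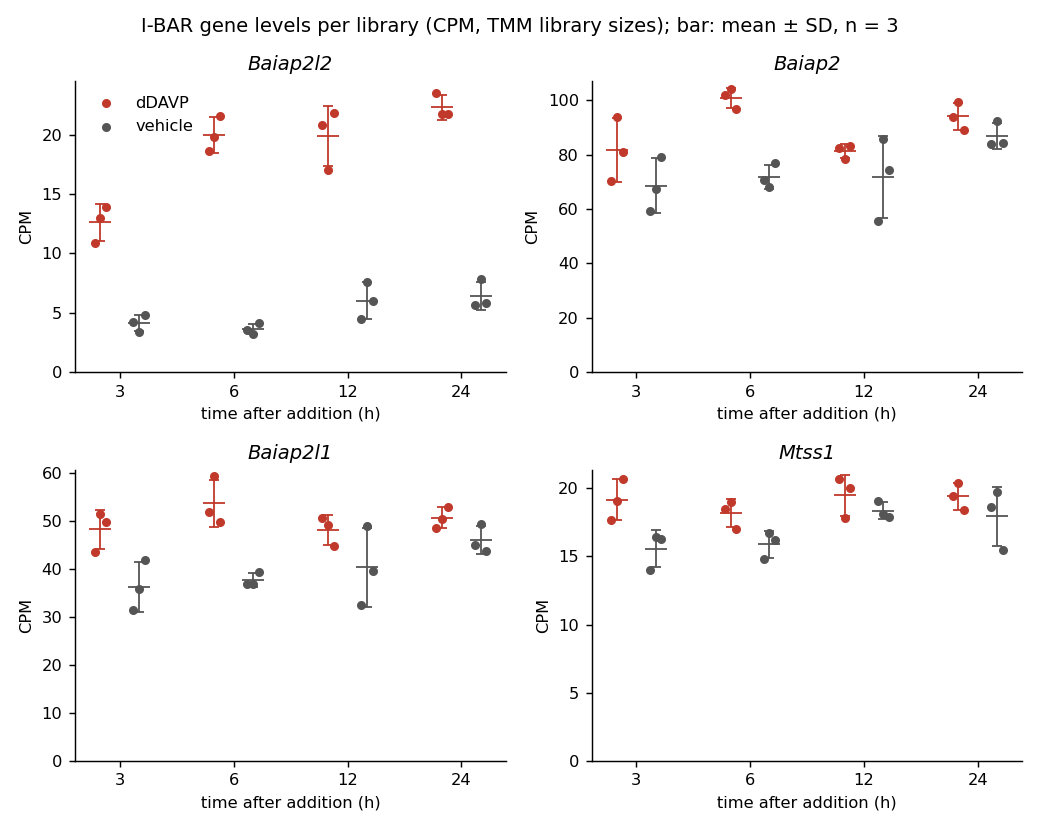
Level of each I-BAR gene (y axis, CPM on TMM-scaled library sizes, from 0) at each time (x axis, hours), with dDAVP in red left of vehicle in grey; points are libraries, and bars are the mean ± SD of 3. Baiap2l2 is separated at every time, from 10.9 CPM upward with dDAVP against 7.80 CPM at most with vehicle, while the other genes differ by much less relative to their level.

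*Baiap2*, whose product carries signals from Cdc42 and Rac1, was the most abundant of the 4 and differed little. At 3 h it had 70.3, 93.8 and 81.0 CPM in dDAVP libraries, against 59.1, 67.4 and 79.2 CPM in vehicle libraries, and the groups overlapped. At 6 h it had 102, 104 and 96.8 CPM with dDAVP, against 70.6, 68.1 and 76.8 CPM with vehicle. This was the only time at which the groups did not overlap, with dDAVP above, as for 29.8% of all genes tested then. At 12 h it had 82.4, 78.5 and 83.3 CPM with dDAVP, against 55.7, 85.6 and 74.3 CPM with vehicle. At 24 h the values were 93.8, 99.3 and 89.1 CPM with dDAVP, against 84.1, 92.3 and 84.3 CPM with vehicle. The log2 fold changes were 0.25, 0.49, 0.18 and 0.11 at 3, 6, 12 and 24 h (SE 0.128 to 0.129). The covariate model gave 0.07, 0.11, 0.12 and 0.07.

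*Baiap2l1*, the microvillus-tip paralogue, was at 43.6, 51.4 and 49.8 CPM with dDAVP at 3 h, against 31.4, 35.8 and 41.8 CPM with vehicle. At 6 h it was at 51.8, 59.3 and 49.9 CPM with dDAVP, against 36.9, 36.8 and 39.3 CPM with vehicle. The groups did not overlap at these earlier times, with dDAVP above, as for 4.04% and 29.8% of all genes tested at 3 and 6 h. At 12 h they did, with 50.7, 49.2 and 44.7 CPM under dDAVP against 32.5, 49.0 and 39.5 CPM under vehicle. They overlapped again at 24 h, with 48.6, 50.4 and 53.0 CPM under dDAVP against 45.1, 49.3 and 43.8 CPM under vehicle. Its log2 fold changes were 0.41, 0.51, 0.26 and 0.14 (SE 0.124 at each time), and 0.25, 0.16, 0.21 and 0.11 in the covariate model.

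*Mtss1*, which lacks the SH3 domain, had 17.7, 19.1 and 20.7 CPM with dDAVP at 3 h, against 14.0, 16.4 and 16.3 CPM with vehicle. At 6 h it had 18.5, 19.0 and 17.0 CPM with dDAVP, against 14.8, 16.7 and 16.2 CPM with vehicle. The groups lay just apart at both times, with dDAVP above, as for 4.04% and 29.8% of all genes tested at 3 and 6 h. At 12 h it had 20.7, 17.8 and 20.0 CPM with dDAVP against 19.1, 18.1 and 17.9 CPM with vehicle, and at 24 h 19.4, 20.4 and 18.4 CPM against 18.6, 19.7 and 15.5 CPM, overlapping at both times. Its log2 fold changes were 0.30, 0.19, 0.08 and 0.11 (SE 0.113 at each time), and 0.24, 0.07, 0.05 and 0.10 in the covariate model. *Mtss2*, its closest relative, had log2 fold changes of 0.35, 0.34, 0.14 and 0.05.

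Of the 3 paralogues, *Baiap2* and *Baiap2l1* were among the 20.9% of all genes called higher at 6 h, and none was called at the other times. The genes were chosen on this contrast, so nothing is read from these calls or their absence. Of the calls over all genes at 6 h 54.8% were higher, against 43.2% under median-of-ratios scaling, 30.1% with a filter of 5 CPM and new scaling, 5.51% by limma on rescaled log2(TPM + 1), 1.21% on log2(TPM + 1) and 0.963% on log2(TPM + 0.1). At 3 h 96.5% were higher, against 73.8% with that filter and 68.9%, 43.0% and 55.9% on these TPM scales. The direction of the paralogues at 6 h also depended on the scale, with log2 fold changes of -0.05 for *Baiap2*, -0.04 for *Baiap2l1* and -0.25 for *Mtss1* on the log2(TPM + 0.1) scale, where *Baiap2l2* had 1.86. The covariate model called none of them at any time. The median log2 fold change of the 11836 genes with a mean of at least 5 CPM was 0.19, 0.33, 0.08 and 0.01 at 3, 6, 12 and 24 h, and that of all genes tested -0.14, -0.39, -0.05 and -0.03. *Mtss1* at 6 h lay below the median of these expressed genes. The log2 fold change of *Baiap2l2* exceeded that of its paralogues by 1.19 to 1.35 at 3 h, 1.95 to 2.27 at 6 h, 1.47 to 1.65 at 12 h and 1.66 to 1.68 at 24 h. These gaps compare genes within the same libraries but are on the scale of counts. They were smaller at 3 h on the log2(TPM + 0.1) scale. There *Baiap2l2* had 0.88, against -0.06 for *Baiap2*, 0.08 for *Baiap2l1* and -0.03 for *Mtss1*.

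**Figure D2:**
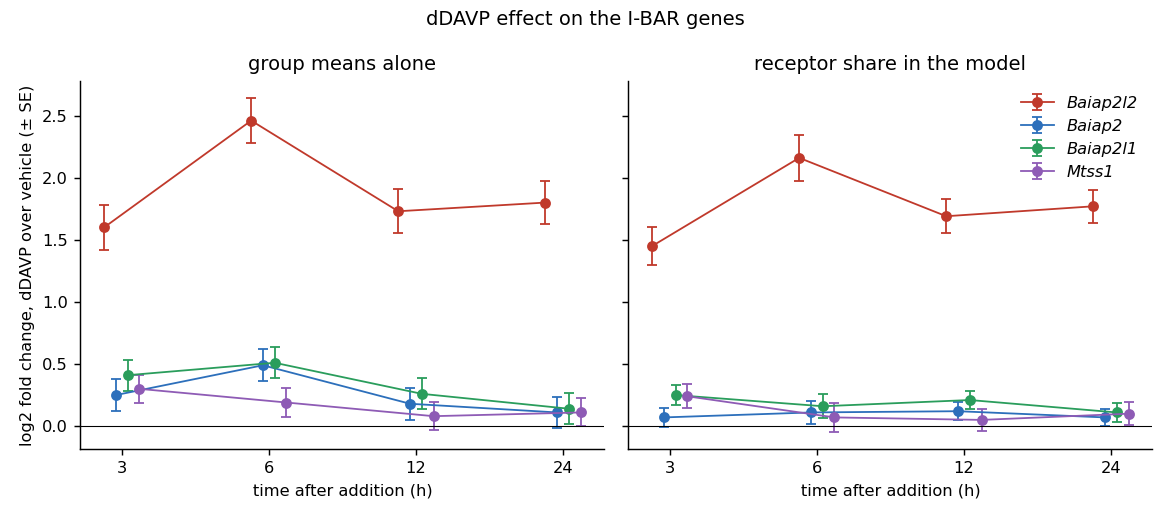
Log2 fold change, dDAVP over vehicle (y axis), of the I-BAR genes at each time (x axis, hours) with 1 mean per group (left) and with the receptor share of each library added (right); points are estimates, bars ± 1 SE, from 3 libraries per group. Baiap2l2 stays between 1.45 and 2.46 in both panels, and its paralogues between 0.05 and 0.51.

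Levels of different genes can be set beside each other only per transcript length, as TPM, in which counts are divided by transcript length and scaled to a common total. In vehicle cells the order was the same at all 4 times, *Baiap2* above *Baiap2l1* above *Mtss1* above *Baiap2l2*, and the libraries of neighbours in that order did not overlap. At 6 h of vehicle, for instance, the levels were 20.3 ± 0.8, 7.93 ± 0.0579, 4.57 ± 0.326 and 1.37 ± 0.124 TPM in that order (SD, n = 3). With dDAVP *Baiap2* and *Baiap2l1* kept the first places at all 4 times. The lower places changed. At 3 h *Mtss1* at 5.47 ± 0.959 TPM and *Baiap2l2* at 4.40 ± 0.184 TPM overlapped. At 6 h *Baiap2l2* stood apart above *Mtss1*, at 5.21 ± 0.154 against 3.84 ± 0.365 TPM. At 12 h they overlapped, at 6.33 ± 0.747 TPM for *Baiap2l2* and 5.39 ± 0.668 TPM for *Mtss1*, and at 24 h *Baiap2l2* was again apart above, at 6.33 ± 0.637 against 4.59 ± 0.202 TPM. Library by library, *Baiap2l2* had more TPM than *Mtss1* in 10 of 12 dDAVP libraries and in 0 of 12 vehicle libraries, and both exceptions were at 3 h.

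Shares within a library avoid differences in TPM scale, which matter here because a 57-base transcript annotated as a microRNA, *Gm24245*, took 37.4% to 51.7% of all TPM. *Baiap2l2* made up 11.9%, 10.1% and 10.9% of the summed TPM of the 4 genes with dDAVP at 3 h, against 7.55%, 4.62% and 6.37% with vehicle. At 6 h it made up 13.3%, 14.9% and 14.9% with dDAVP, against 4.04%, 3.65% and 4.35% with vehicle. At 12 h the shares were 15.9%, 13.8% and 16.6% with dDAVP, against 5.27%, 7.50% and 6.08% with vehicle. At 24 h they were 16.8%, 14.5% and 15.7% with dDAVP, against 5.18%, 6.78% and 5.13% with vehicle. Every dDAVP library lay above every vehicle library, and the mean with dDAVP was lowest at 3 h, at 10.9% ± 0.919. *Baiap2* held 52.3% ± 2.48, 53.8% ± 1.06, 49.4% ± 1.05 and 52.1% ± 1.6 at 3, 6, 12 and 24 h of dDAVP, against 56.7% ± 2.45, 59.3% ± 1.1, 54.9% ± 2.98 and 57.9% ± 0.26 with vehicle (SD, n = 3). The mean share of *Baiap2l1* was 20.9% to 23.2% with dDAVP and 22.8% to 23.3% with vehicle. Counted without length, *Baiap2l2* had 15.5% ± 1.64, 19.9% ± 2.19, 24.4% ± 2.4 and 23.8% ± 1.68 of the counts of *Baiap2* in dDAVP cells at 3, 6, 12 and 24 h, against 6.09% ± 1.03, 5.05% ± 0.293, 8.33% ± 0.48 and 7.35% ± 0.949 in vehicle cells.

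**Figure D3:**
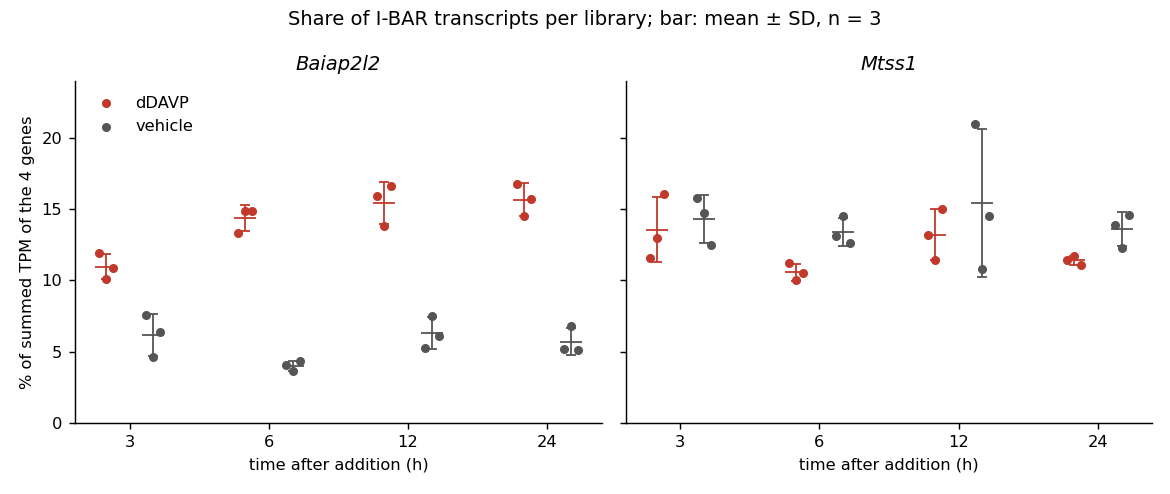
Share of the summed TPM of the 4 I-BAR genes (y axis, percent) held by Baiap2l2 (left) and Mtss1 (right) in each library by time (x axis, hours), with dDAVP in red left of vehicle in grey; bars are the mean ± SD of 3 libraries. The Baiap2l2 share is 10.1% to 16.8% in dDAVP libraries and 3.65% to 7.55% in vehicle libraries, whereas the Mtss1 shares of both treatments overlap at 3 and 12 h.

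The TPM scale gave *Baiap2l2* a smaller difference at 3 h than the counts did. Its 3 h levels were 4.60, 4.24 and 4.35 TPM with dDAVP, against 3.12, 1.72 and 2.39 TPM with vehicle, and the log2 fold change was 0.88 on the log2(TPM + 0.1) scale against 1.60 from counts. Since TPM divides each count by a transcript length, the ratio of count to TPM gives the mean length that the authors' estimates imply. That ratio was scaled to bases on 750 genes with a single annotated transcript. For *Baiap2l2* it came to 1669, 1852 and 1936 bases in the dDAVP libraries at 3 h, against 1262, 1561 and 1370 bases in the vehicle libraries at 3 h. The other 21 libraries, those of dDAVP at 3 h included, lay between 1664 and 2007 bases, so the vehicle libraries at 3 h stood below all of them. Vehicle libraries had 102, 74 and 104 counts at 3 h. At 6 h they had 68, 67 and 89 counts, with lengths of 1779, 1911 and 1808 bases. The annotated *Baiap2l2* transcripts are a retained intron form of 2276 bases, a coding one of 2100 bases, a coding one of 1058 bases, and non-coding ones of 486 and 283 bases. *Baiap2* varied little in this measure, from 2383 to 2512 bases, and *Baiap2l1* from 3124 to 3325 bases. *Mtss1* spread from 1802 to 2791 bases, with both treatments in that range. The receptor share was on average also highest in vehicle cells at 3 h. The parts of low counts and of this share in the shorter implied length were not tested.

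**Figure D4:**
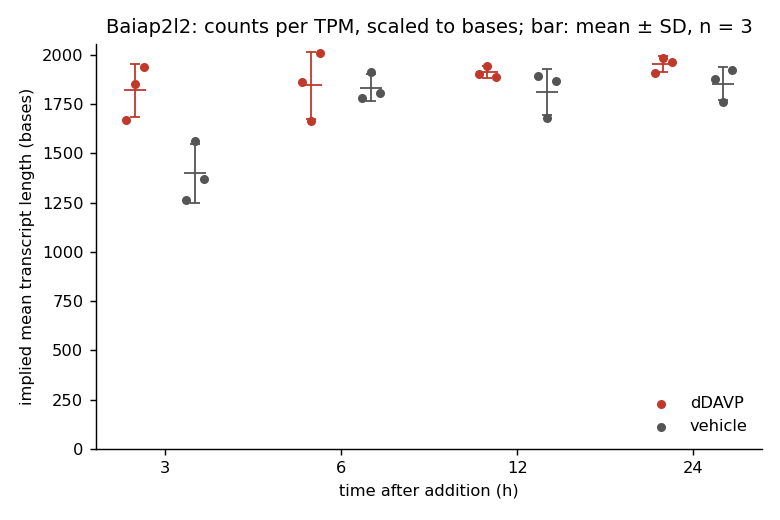
Mean Baiap2l2 transcript length implied by the deposited counts and TPM (y axis, bases, from 0) in each library by time (x axis, hours), with dDAVP in red left of vehicle in grey; bars are the mean ± SD of 3 libraries. The vehicle libraries at 3 h lie at 1262 to 1561 bases and all others at 1664 bases or above.

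The change of vehicle cells over time was not the contrast that chose the genes, so it was tested. The same vehicle libraries entered that contrast, so these tests are not fully independent of the choice. *Baiap2l2* averaged 6.42 ± 1.2 CPM in vehicle cells at 24 h and 4.14 ± 0.702 CPM in vehicle cells at 3 h (SD, n = 3 each), with all 24 h libraries above all 3 h libraries, as for 22.4% of the genes tested. It rose by 0.63 on the log2 scale of counts (SE 0.183, adjusted p = 0.0156, edgeR), but had -0.24 on the log2(TPM + 0.1) scale. *Baiap2* rose by 0.34 (SE 0.129, adjusted p = 0.0408, edgeR), with 86.9 ± 4.7 CPM at 24 h and 68.6 ± 10.2 CPM at 3 h. *Baiap2l1* also rose by 0.34 (SE 0.124, adjusted p = 0.0356, edgeR), with 46.1 ± 2.85 CPM at 24 h and 36.3 ± 5.19 CPM at 3 h. *Mtss1* did not pass, at 0.20 (SE 0.113, adjusted p = 0.135, edgeR). On the log2(TPM + 0.1) scale the paralogues had -0.11, -0.14 and -0.21 in the same order. The same contrast called 38.0% of all genes tested, and 18.4% of all genes tested were called higher, so 3 of 4 I-BAR genes called is to be read against that background. The median shift of genes with at least 5 CPM was 0.31, close to the values of *Baiap2* and *Baiap2l1*.

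The covariate model called 0.699% of all genes in this contrast, and *Baiap2l2* was at 0.33 (adjusted p = 0.585), *Baiap2* at -0.02 (adjusted p = 0.979), *Baiap2l1* at 0.01 (adjusted p = 0.987) and *Mtss1* at 0.08 (adjusted p = 0.893), all by edgeR. The receptor share averaged 0.219% ± 0.0635 in vehicle cells at 24 h and 0.610% ± 0.249 in vehicle cells at 3 h. The libraries of these groups did not overlap in it, so share and time cannot be fully told apart in this contrast. The call for *Baiap2l2* also ended without vehicle replicate 1 at 3 h (log2 0.65, adjusted p = 0.0847, edgeR), without vehicle replicate 2 at 3 h (0.53, adjusted p = 0.0624) and without vehicle replicate 2 at 24 h (0.48, adjusted p = 0.0989). Those of *Baiap2* and *Baiap2l1* ended without any 1 of vehicle replicates 1 and 2 at 3 h and 1, 2 and 3 at 24 h. Across all 4 vehicle times, *Baiap2l2* changed (adjusted p = 0.0133 by edgeR on counts, 0.0617 by limma on log2(TPM + 1)), where 10.1% of all genes did. *Baiap2* (adjusted p = 0.156), *Baiap2l1* (adjusted p = 0.145) and *Mtss1* (adjusted p = 0.218) did not pass the same test. In the covariate model, which called 2.6% of all genes, *Baiap2l2* had an adjusted p of 0.117 (edgeR). Without vehicle replicate 2 at 24 h its adjusted p was 0.1.

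The makeup of the group in vehicle cells was compared over time by an exact permutation test, added after the data were seen, over all 15400 divisions of the 12 vehicle libraries into 4 times. The *Baiap2l2* share of the summed counts was 3.34% ± 0.55, 2.81% ± 0.206, 4.37% ± 0.358 and 4.06% ± 0.486 at 3, 6, 12 and 24 h (SD, n = 3; p = 0.00916, 0.0733 after Benjamini-Hochberg adjustment over 8 exact permutation tests). Its share of summed TPM was 6.18% ± 1.47, 4.01% ± 0.35, 6.29% ± 1.13 and 5.70% ± 0.943 (exact permutation p = 0.064, adjusted 0.171). The share of *Baiap2* in counts gave an adjusted exact p of 0.078, and the other shares 0.171 to 0.965. None passed after adjustment.

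*Baiap2l2* sits close to genes whose estimated log2 fold changes were smaller than its own. On one side are *Slc16a8*, a monocarboxylate transporter gene, and the predicted gene *Gm49486*, both near 1 to 2 CPM, with no call at any time. Their mean counts per library were only 20.0 and 33.3, so the lack of calls does not show that they were unchanged. On the other side *Pla2g6*, a calcium-independent phospholipase A2 gene, ends 691 bases away and is transcribed on the same strand. It had log2 fold changes of 0.19, 0.42, 0.21 and 0.02 at 3, 6, 12 and 24 h, of which only that at 6 h passed (adjusted p = 0.0188, edgeR), with 27.2 ± 0.598 CPM with dDAVP and 20.4 ± 1.72 CPM with vehicle (SD, n = 3). *Maff*, a small MAF transcription factor gene 61084 bases away, had 0.37, 0.67, 0.20 and 0.16 and also passed only at 6 h (adjusted p = 0.0287, edgeR). Of all genes tested, 38.1% were called at 6 h and 20.9% called higher, against 0.484%, 0.0773% and 0.0841% called at 3, 12 and 24 h. Nothing is therefore read from the times at which these neighbours passed. On the log2(TPM + 0.1) scale *Pla2g6* was at -0.44 at 6 h. *Pla2g6* and *Maff* did not pass at 6 h in the covariate model (adjusted p = 0.852 and 0.994, edgeR), when 0.336% of all genes were called.

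Likeness to each gene was measured as Pearson's r of log2(CPM + 1) over the 24 libraries, among 10479 other named genes with a mean of at least 5 CPM. The libraries share treatment, time, depth and receptor share, so r describes these libraries only. Most like *Baiap2l2* were the water channel genes *Aqp5* (r = 0.976) and *Aqp2* (r = 0.954). Both are also on chromosome 15, but *Aqp2* lies from 99579055 to 99584547, far from *Baiap2l2* at 79258195 to 79285537. Next were *Arl4d*, an ARF-like GTPase gene (r = 0.948), *Rasgef1b*, a Rap exchange factor gene (r = 0.944), and *Akr1c19*, an aldo-keto reductase gene (r = 0.942). After group means were taken out, r of *Baiap2l2* with *Aqp2* was 0.342, so the value of 0.954 rests largely on differences between groups. *Aqp5* had 44.4 ± 5.17, 57.0 ± 1.86, 52.9 ± 5.69 and 61.8 ± 10.0 CPM at 3, 6, 12 and 24 h of dDAVP, against 18.6 ± 3.33, 18.2 ± 1.47, 22.2 ± 2.87 and 27.2 ± 1.15 CPM with vehicle (SD, n = 3). These genes were picked for following *Baiap2l2* over the same libraries, so their differences are given with no test. The log2 fold changes of *Aqp5* were 1.26, 1.64, 1.26 and 1.18 at 3, 6, 12 and 24 h, and 1.13, 1.38, 1.21 and 1.15 in the covariate model. *Arl4d* had 1.10, 1.11, 0.81 and 0.89, and 0.92, 0.73, 0.76 and 0.85 in that model. *Akr1c19* had 1.04, 1.36, 0.55 and 0.66, and 0.88, 1.04, 0.51 and 0.62 in that model. *Rasgef1b* had smaller values of 0.34, 0.46, 0.28 and 0.34, and 0.26, 0.30, 0.25 and 0.32 in that model.

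The paralogues resembled other genes. Most like *Baiap2* were *Atp5b*, a subunit of mitochondrial ATP synthase (r = 0.975), *H2-K1*, an MHC class I gene (r = 0.972), and *Nmt1*, an N-myristoyltransferase gene (r = 0.971). Most like *Baiap2l1* were *Prkar1a*, a regulatory subunit of protein kinase A (r = 0.965), the splicing regulator *Ptbp1* (r = 0.961) and *Uap1l1* (r = 0.957). *Mtss1* had weaker likenesses, to *Clmn* (r = 0.831), *Flrt1* (r = 0.815) and *Rab17*, an epithelial trafficking GTPase gene (r = 0.814). Among the 4 genes themselves, *Baiap2* and *Baiap2l1* were most alike (r = 0.913, and 0.862 after group means were taken out). *Baiap2l2* had r of 0.718 with *Baiap2*, 0.821 with *Baiap2l1* and 0.667 with *Mtss1*. After group means were taken out, these were 0.711, 0.614 and 0.232. Against the log2 receptor share, r was -0.638 for *Baiap2l2*, -0.925 for *Baiap2*, -0.87 for *Baiap2l1* and -0.565 for *Mtss1*.

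The wider family of BAR-domain genes was listed beside the I-BAR genes, and 65 of its 66 members were tested. It includes the endocytic amphiphysins and endophilins, the F-BAR proteins and the sorting nexins. This list and those below were drawn up with earlier results of these data known. Genes are named from them because they were called, so their p-values are no independent support. At 3 h, when 0.484% of all genes were called, 1 member rose and 0 fell. It was *Snx6*, a retromer-associated sorting nexin, with 266 ± 30.1 CPM with dDAVP and 169 ± 21.1 CPM with vehicle (SD, n = 3; log2 0.66, adjusted p = 0.0114, edgeR). At 6 h 21 rose and 1 fell, when 38.1% of all genes were called and 20.9% called higher. *Snx6* was again among those that rose (log2 0.67, adjusted p = 0.00562, edgeR). So were *Sh3glb1*, an endophilin gene (0.50, adjusted p = 0.0201), and *Snx4*, a sorting nexin of endosomal recycling (0.39, adjusted p = 0.0297), which was at -0.25 on the log2(TPM + 0.1) scale. The 1 that fell was *Bin2*, an N-BAR gene of blood cells, at 1.48 ± 0.265 CPM with dDAVP and 3.39 ± 0.731 CPM with vehicle (log2 -1.19, adjusted p = 0.0176, edgeR). No member passed at 12 or 24 h by edgeR or DESeq2, when edgeR called 0.0773% and 0.0841% of all genes. At an unadjusted p under 0.05 there were 2 at each of these times. Here and below, the share of all genes at that unadjusted level is not given. Nothing is therefore read from such counts. The list's median log2 fold change was 0.15, 0.27, 0.06 and -0.01 at 3, 6, 12 and 24 h, between the -0.14, -0.39, -0.05 and -0.03 of all genes tested and the 0.19, 0.33, 0.08 and 0.01 of genes with at least 5 CPM.

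Under the covariate, 0 members of that list passed at 6, 12 or 24 h, when 0.336%, 0.296% and 0.346% of all genes were called. At an unadjusted p under 0.05 there were 3, 6 and 4. At 3 h *Snx6* rose in that model too (log2 0.46, adjusted p = 1.4e-05, edgeR). Leaving out any 1 of the 6 libraries at 6 h brought the count of 22 called there to between 0 and 9. The call at 3 h was lost when dDAVP replicate 2 or 3 or vehicle replicate 1 or 2 of that time was left out.

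Partners of the I-BAR proteins and the actin assembly machinery around them (47 genes, all tested) gave 1 rise and 0 falls at 3 h, when 0.484% of all genes were called. At 6 h there were 23 rises and 4 falls, when 38.1% of all genes were called and 20.9% called higher. No member passed at 12 or 24 h by edgeR or DESeq2, when edgeR called 0.0773% and 0.0841% of all genes. At an unadjusted p under 0.05 there were 4 and 1. The gene called at 3 h was *Tiam1*, a Rac exchange factor that binds IRSp53, with 44.8 ± 4.95 CPM with dDAVP and 31.0 ± 4.35 CPM with vehicle (SD, n = 3; log2 0.53, adjusted p = 0.0296, edgeR). It rose at 6 h as well (log2 0.62, adjusted p = 0.0044, edgeR). At 6 h the GTPase *Rac1* rose by 0.86 (adjusted p = 0.0324, edgeR), and *Nckap1*, a subunit of the WAVE complex, rose by 0.93 (adjusted p = 0.0175, edgeR). *Eps8*, whose product caps actin filaments and bundles them with IRSp53, fell by 1.13 on the log2 scale, with 1.64 ± 0.501 CPM with dDAVP and 3.60 ± 0.088 CPM with vehicle (adjusted p = 0.0262, edgeR). The others that fell, named after their values were seen, were *Ptprd*, *Lin7a* and *Dlg4*, of which the highest, *Dlg4*, had 12.8 ± 1.62 CPM with dDAVP and 17.5 ± 0.145 CPM with vehicle. The median log2 fold change of the list was 0.19, 0.30, 0.09 and 0.03 at 3, 6, 12 and 24 h, close to that of genes with at least 5 CPM and above that of all genes tested.

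When the covariate was added, *Tiam1* still rose at 3 h (log2 0.40, adjusted p = 0.0159, edgeR). No partner passed at 6, 12 or 24 h in that model, when 0.336%, 0.296% and 0.346% of all genes were called. At an unadjusted p under 0.05 there were 4, 6 and 8. *Eps8* was then at -0.06 at 6 h (adjusted p = 0.996, edgeR). Without any 1 of the 6 libraries at 6 h, 0 to 12 partners were called there, against 27 with all libraries. DESeq2 called none of them at 3 h, and edgeR lost the call without any 1 of dDAVP replicates 2 and 3 and vehicle replicates 1 and 2 of that time.

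Genes of the microvillus and brush border, where IRTKS is found in other epithelia, gave 8 rises and 0 falls among 23 tested of 24 at 6 h, when 38.1% of all genes were called and 20.9% called higher. They passed at no other time by edgeR or DESeq2, when edgeR called 0.484%, 0.0773% and 0.0841% of all genes at 3, 12 and 24 h. At an unadjusted p under 0.05 there were 3, 1 and 0 at these times. *Myo1d*, a class I myosin of the brush border, had 39.5 ± 5.2 CPM with dDAVP and 26.9 ± 2.53 CPM with vehicle at 6 h (SD, n = 3; log2 0.55, adjusted p = 0.00881, edgeR). The actin bundler *Pls1* rose by 0.43 (adjusted p = 0.0218, edgeR), the membrane-actin linker *Rdx* by 0.38 (adjusted p = 0.0278, edgeR) and the scaffold *Slc9a3r2* by 0.36 (adjusted p = 0.0477, edgeR). All 4 were below 0 on the log2(TPM + 0.1) scale, at -0.04, -0.13, -0.13 and -0.15 in this order. The list's median at 6 h was 0.22, against -0.39 for all genes tested and 0.33 for genes with at least 5 CPM. The covariate left no member passing at 3, 6, 12 or 24 h, when 0.73%, 0.336%, 0.296% and 0.346% of all genes were called. At an unadjusted p under 0.05 there were 0, 3, 0 and 3. Without any 1 of the 6 libraries at 6 h, 0 to 5 were called.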

How the data were processed

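RNA-seq libraries of mpkCCD cells (SMART-Seq HT cDNA and Nextera libraries, per the labels' protocols) were analysed from tables of estimated counts and TPM per Ensembl gene, both made and deposited by the authors. The estimated counts were deposited without normalization, and the deposited TPM were scaled by the authors to transcript length and library total. Per the submitters' processing notes, the tool was Salmon 0.14.10 and the build GRCm38.p6. The summing of transcripts to genes is not given in the sources used here. Every value column matched a label.

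Counts were rounded, scaled by TMM (factors 0.8138 to 1.326) and filtered by filterByExpr, which kept 29743 of 54432 genes, all 4 I-BAR genes included. A model with 1 mean for each of the 8 groups was fitted to all 24 libraries with edgeR 4.0.16 (R 4.3.3) and tested by quasi-likelihood F tests with Benjamini-Hochberg adjustment over all genes tested and a threshold of 0.05. The common dispersion was 0.0366, a biological coefficient of variation of 0.191. CPM use TMM library sizes. Symbols came from GENCODE M21 (54346 identifiers named, 86 not). Fits were checked on simulated data with a common profile and a common dispersion. No differences in receptor share were built in, so that check does not cover them. DESeq2 1.42.0 and limma 3.58.1 served as alternatives, and figures were drawn with matplotlib 3.10.9.

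The I-BAR genes, the lists and the receptor share covariate were chosen with earlier results of these data known. Genes named from each list were up to 4 called in the most of the 4 comparisons, ties going to the largest mean absolute log2 fold change. Also named were *Aqp2*, *Mtss2*, neighbours of *Baiap2l2* and the genes most like each I-BAR gene. Same-numbered replicates did not consistently deviate together (correlations of -0.467 to 0.663, the highest for replicate 1 at 3 h), so the numbers were not used as pairs. A result for a further listed gene is not reported here.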

Additional observations from a re-analysis of the deposited data

How the results depend on the processing

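The difference of *Baiap2l2* between dDAVP and vehicle kept its direction under every alternative run. Its log2 fold change was 0.68 to 1.71 at 3 h, 1.39 to 2.56 at 6 h, 1.22 to 1.77 at 12 h and 1.30 to 1.84 at 24 h with all libraries, and 1.49 to 1.71, 2.31 to 2.49, 1.55 to 1.98 and 1.71 to 1.97 without each library in turn. The lowest value was below 0 for *Baiap2* and *Mtss1* at 3 h, for all 3 paralogues at 6 h, and for *Mtss1* at 24 h (-0.05). Depth limits *Baiap2l2* most in vehicle cells, at 67 to 169 counts per library. Unless a cause is shown by a value here, the cause was not tested. Log2 values below are dDAVP over vehicle, or vehicle at 24 h over vehicle at 3 h, and list counts are called members.

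With limma on log2(TPM + 1), *Baiap2l2* had 0.68, 1.39, 1.22 and 1.30 at 3, 6, 12 and 24 h, -0.17 over vehicle time and an adjusted p of 0.0617 over 4 times. *Baiap2* had -0.06 at 3 h, -0.05 at 6 h and -0.11 over vehicle time, *Baiap2l1* 0.07, -0.03 and -0.13, and *Mtss1* -0.02, -0.20 and -0.18. With 0.1 added in place of 1, *Baiap2l2* had 0.88 at 3 h, 1.86 at 6 h and -0.24 over vehicle time, *Baiap2* -0.06, -0.05 and -0.11, *Baiap2l1* 0.08, -0.04 and -0.14, and *Mtss1* -0.03, -0.25 and -0.21. With TPM rescaled without *Gm24245*, added after seeing the data, *Baiap2l2* had 0.86 at 3 h, 1.74 at 6 h, 1.45 at 24 h, -0.06 over vehicle time and an adjusted p of 0.0755 over 4 times. *Mtss1* then had 0.08 at 3 h, -0.07 at 6 h and -0.04 over vehicle time, *Baiap2* 0.11 at 6 h and 0.06 over vehicle time, and *Baiap2l1* 0.13 and 0.03. These 3 settings called 14, 24 and 5 other BAR-domain genes, 10, 17 and 4 partners and 3, 3 and 1 microvillus genes at 6 h, and 0 partners at 3 h in each; the first and second also called 0 BAR-domain genes at 3 h.

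At 6 h the log2 fold change turned negative on both TPM scales, with 1 and with 0.1 added, for *Atp5b* (-0.13 and -0.13), *Clmn* (-0.01 and -0.01), *Flrt1* (-0.10 and -0.15), *H2-K1* (-0.10 and -0.10), *Myo1d* (-0.03 and -0.04), *Nmt1* (-0.14 and -0.15), *Pla2g6* (-0.38 and -0.44), *Pls1* (-0.12 and -0.13), *Ptbp1* (-0.12 and -0.12), *Rasgef1b* (-0.10 and -0.11), *Rdx* (-0.12 and -0.13), *Slc9a3r2* (-0.14 and -0.15) and *Snx4* (-0.24 and -0.25). On rescaled TPM it did so for *Pla2g6* (-0.25) and *Snx4* (-0.08), and with the receptor share for *Nmt1* (-0.01), *Slc9a3r2* (-0.07) and *Snx4* (-0.01).

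The filter of 5 CPM, with new TMM factors, gave *Baiap2l2* 2.14, *Baiap2* 0.17, *Baiap2l1* 0.18 and *Mtss1* -0.14 at 6 h, *Mtss1* 0.12 at 3 h, and 0.32, 0.04, 0.04 and -0.11 over vehicle time, with 2 BAR-domain genes and 2 partners at 3 h, and 2, 5 and 1 members of the 3 lists at 6 h. The receptor share covariate gave *Baiap2l2* 2.16, *Baiap2* 0.11 and *Baiap2l1* 0.16 at 6 h, 0.33, -0.02 and 0.01 over vehicle time, an adjusted p of 0.117 for *Baiap2l2* over 4 times, 2 BAR-domain genes at 3 h and 0, 0 and 0 at 6 h. Median-of-ratios scaling gave *Baiap2* 0.60 at 6 h, ended the calls of *Baiap2* and *Baiap2l1* over vehicle time (0.49 each), and called 0 BAR-domain genes and 0 partners at 3 h, and 7, 13 and 4 at 6 h. With no filter the same 2 calls ended (0.43 each), with 0 partners at 3 h and 4, 9 and 1 at 6 h. DESeq2 gave *Baiap2* 0.60 at 6 h, 0 partners at 3 h and 5 microvillus genes at 6 h. By CPM, the share of *Baiap2l2* was 7.80%, 10.4%, 11.7% and 12.0% with dDAVP and 3.34%, 2.81%, 4.37% and 4.06% with vehicle.

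Leaving out each library in turn, *Baiap2l2* ranged from 0.48 to 0.74 over vehicle time, with adjusted p over 4 times of 0.00173 to 0.1. *Baiap2* ranged from 0.25 to 0.45 (over 4 times, adjusted p = 0.0245 to 0.474), and *Baiap2l1* from 0.25 to 0.44 (adjusted p = 0.0253 to 0.468), with 0.35 to 0.50 at 6 h. BAR-domain genes called were 0 to 1 at 3 h and 0 to 9 at 6 h, partners 0 to 2 and 0 to 12, and microvillus genes 0 to 5 at 6 h.

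Over all genes, 144, 11320, 23 and 25 were called at 3, 6, 12 and 24 h, 302, 2034, 100 and 112 after filtering at 5 CPM, 70, 7908, 10 and 15 under median-of-ratios scaling, 217, 100, 88 and 103 with the receptor share, and 102, 4932, 18 and 18 with no filter. A replicate block, which the correlations of same-numbered libraries do not consistently bear out, gave 170, 13144, 37 and 27. Under it *Baiap2l2* was at 1.60 at 3 h, and 3 calls were gained, of *Akr1c19* (0.57) and *Arl4d* (0.82) at 12 h and *Uap1l1* (0.53) at 3 h.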
